A study of Saccharomyces cerevisiae with 24 samples.

Results

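The comparison described here is the second step of an adaptation protocol in budding yeast (Saccharomyces cerevisiae, BY4741, mating type a): a high dose of hydrogen peroxide (H2O2) added to cells that had already met a low one. Adapted cells received 0.1 mM H2O2 for 45 min and then 0.4 mM for 1 h, and pretreated cells received only the 0.1 mM dose for 45 min per the labels. The methods describe the low-dose treatment as a variant of the acute protocol, which would make it 1 h. These are 8 of the 24 arrays of the series, 4 in each group, chosen by their labels, and 6207 of the 6251 open reading frames (ORFs) had a value on all 8. On each two-colour array the RNA of treated cells was hybridized together with RNA of untreated cells, so every value below is a log2 ratio of treated to untreated intensity, and the difference between the groups is a difference of such ratios, adapted minus pretreated. The 2 groups were never hybridized against each other. By the labels adapted cells also had 1 h more in the experiment, so that dose and time cannot be told apart, while by the methods the total times could be alike.

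H2O2 is removed in yeast mainly by peroxiredoxins, which are oxidised at a cysteine and reduced again by thioredoxin, by glutathione peroxidases and by catalases and cytochrome c peroxidase. The transcription factor Yap1, which is activated by oxidation and acts with Skn7, turns on many of these genes, Msn2 and Msn4 drive the general stress response, and Rpn4 drives the proteasome genes. Cells under peroxide also delay the cell cycle and induce ribonucleotide reductase, the enzyme that supplies deoxynucleotides for DNA repair.

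The arrays of a group were deposited with the same distribution of ratios, up to a difference of 0.00579 on the log2 scale in adapted and 0.00497 in pretreated cells. The highest and lowest ratios were therefore 3.97 and -2.03 on every adapted array and 2.73 and -1.88 on every pretreated array, so genes at these limits share 1 value and their spread between arrays is no measure of replicate error. Inside the limits a gene can also have the same ratio on 2 arrays, such as NCA3 with 2.14 on both adapted Cy5 arrays. LYS1 had 1.77 on these arrays and 1.15 on both pretreated Cy5 arrays. For such genes the spread can be too small. The SD of the log2 ratio over ORFs was 0.425 on adapted and 0.378 on pretreated arrays. Each group has 2 arrays with the treated RNA in Cy5 and 2 with it in Cy3. Arrays of the same orientation correlated at 0.921 to 0.95 between the groups in Cy5 and at 0.497 to 0.572 in Cy3, while arrays of opposite orientation correlated between -0.689 and -0.302 across the groups. Replicates of 1 group in opposite orientations were also negatively correlated, between -0.325 and -0.131 in adapted and between -0.75 and -0.642 in pretreated cells. The direction of the ratio was kept because the labels give the treated RNA as the first channel on every array and because the strongest induced genes, such as TSA2, were positive in both orientations. The difference between the groups was also larger in Cy3 than in Cy5 for 4904 of the 6207 ORFs, with an SD over ORFs of 0.362 in Cy3 and 0.129 in Cy5. For this reason the differences within each orientation are given beside part of the results. Where they are not given, they can be as unequal. The part that the dyes have in any single gene was not tested.

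The genes that mark the strain were checked by their intensity. URA3, which BY4741 lacks, lay at percentile 9.17 over the 8 arrays. HIS3 and LEU2, which it also lacks, had no value on the adapted arrays and lay at percentiles 2.90 and 6.51 on the pretreated ones, and MET17 was not analysed here. Of the genes that mark mating type a, STE2, MFA1, MFA2, STE6, BAR1 and AGA2 lay at percentiles 76.7 to 97.2, while the alpha-specific MF(ALPHA)1, MF(ALPHA)2 and STE3 lay at 6.72 to 9.36 and SAG1, the exception, at 40.8. These are levels of different probes, so they are only a rough check. ACT1, the actin gene, averaged -0.12 ± 0.10 in adapted and -0.01 ± 0.10 in pretreated cells (SD, n = 4 each), an untreated-like ratio in both groups, with a difference of -0.11 ± 0.08 (SE) and an adjusted p of 0.407.

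With the high dose added, 47 ORFs were higher and 12 were lower in adapted than in pretreated cells at a limma adjusted p under 0.05, which is 0.757% and 0.193% of the ORFs tested. The higher ones were led by peroxiredoxins and a thioredoxin, small heat shock proteins and enzymes of lysine and arginine synthesis. The lower ones included a cell wall mannoprotein, a daughter-cell gene, a purine enzyme and a histone. Among the 47 higher ORFs the median difference was 0.76, and 15 differed by at least 1. Among the 12 lower ones the median size was 0.53. In both directions together, all 59 had both adapted arrays on the same side of both pretreated arrays in each dye orientation. Across all ORFs, 9.01% lay above and 10.3% below in this way. The calls were made from these same arrays with the dye in the model, which favours such ORFs. The contrast is therefore a description and no separate support.

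The 4 adapted arrays did not overlap with the 4 pretreated arrays for 25 of the higher and 5 of the lower ORFs, whatever the dye, against 2% and 2.09% of all ORFs. This too is a count over the arrays that gave the calls.

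The number of calls depended strongly on the dye term and on single arrays. With a dye term of its own for each group, 572 ORFs were higher and 543 lower (9.22% and 8.75%), and all 59 were among them. Other settings ended most calls: 0 ORFs were called without a dye term or in the table of spots (234 and 1098 at an unadjusted p under 0.05), and 2 and 9 of the 59 were still called with a variance trend and robust prior and over 12 wild type arrays. Leaving out 1 array gave between 3 and 133 higher and between 0 and 62 lower ORFs, and 3 of the 59 were called in each of these 8 fits: OSI1, NCA3 and CTP1. Of ORFs with a difference of at least 1 in size, 13 did not pass the threshold. Of all 6207 ORFs, 2895 had a difference above 0 and 3312 below 0, the base for the counts of list members given below.

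Peroxiredoxins and a thioredoxin were among the largest differences. TSA2, a cytosolic peroxiredoxin, had log2 ratios of 3.50, 3.97, 3.97 and 3.97 on the adapted arrays, against 0.91, 1.13, 2.10 and 2.42 on the pretreated arrays. Every adapted value lay above every pretreated one, and 3 of the adapted values are the highest ratio of their array. The difference was 2.21 ± 0.27 (SE), or 4.63-fold, with an adjusted p of 0.00836, where the tied values at the ceiling make the size and its SE uncertain. It was 1.47 within Cy5 and 2.95 within Cy3.

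TSA1, the abundant peroxiredoxin of the cytosol and the close relative of TSA2, lay on opposite sides of untreated cells in the 2 groups. Its ratios were 0.23, 0.80, 0.38 and 0.46 in adapted cells, against -1.23, -1.03, -0.47 and -0.45 in pretreated cells. The groups did not overlap, and the difference was 1.26 ± 0.15, or 2.40-fold (adjusted p = 0.00726). The genes are similar in sequence, and how far their probes share signal is not known.

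AHP1, a thiol peroxidase that prefers alkyl hydroperoxides, was also above untreated cells on average in adapted cells and below them in pretreated cells. It had 0.69, 1.93, 0.60 and 0.58 in adapted cells, against -1.88, -1.52, -0.15 and 0.09 in pretreated cells. No pretreated value reached the lowest adapted one, and the first 2 pretreated arrays, both Cy3, were far below the other 2. The value of -1.88 is the lowest ratio of its array, which makes the size and its SE less certain. The difference was 1.81 ± 0.27 (3.51-fold, adjusted p = 0.0215), with 1.34 within Cy5 and 2.28 within Cy3.

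PRX1, the mitochondrial peroxiredoxin, had 0.70, 1.49, 1.29 and 1.46 in adapted cells, against -0.49, -0.74, -0.02 and 0.08 in pretreated cells. It was thus above untreated cells on all adapted arrays and near or below them on the pretreated ones, with a difference of 1.52 ± 0.21 (2.88-fold, adjusted p = 0.0168). Within Cy5 the difference was 1.06 and within Cy3 1.99. TRX2, a cytosolic thioredoxin, had 1.02, 1.87, 1.62 and 1.60 in adapted cells, against -0.93, -0.59, 0.20 and 0.49 in pretreated cells. Here too the groups were apart, by 1.74 ± 0.27 (3.33-fold, adjusted p = 0.0232). Within Cy5 the difference was 1.10 and within Cy3 2.37.

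**Figure D1:**
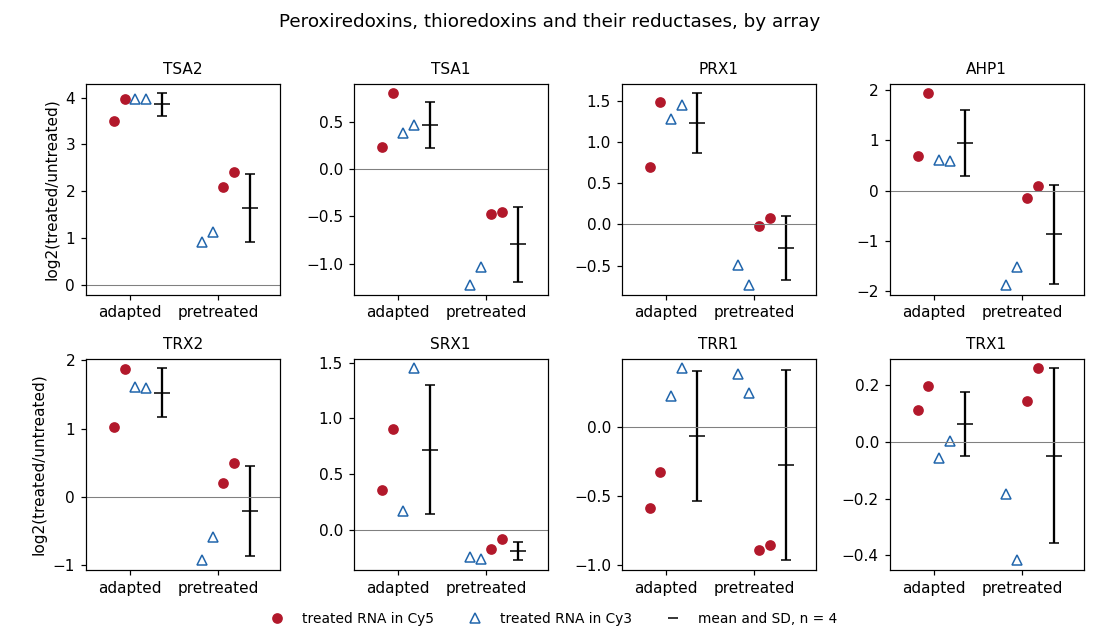
Log2 ratio of treated to untreated intensity on each array for 8 genes of the peroxiredoxin and thioredoxin system, adapted cells left and pretreated cells right; filled circles have the treated RNA in Cy5, open triangles in Cy3, and the bar is the mean and SD (n = 4). TSA2, TSA1, PRX1, AHP1, TRX2 and SRX1 are apart between the groups, while TRR1 and TRX1 overlap and TRR1 splits by dye instead.

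The rest of the system did not pass the test. SRX1, the sulfiredoxin that repairs over-oxidised peroxiredoxins, had 0.35, 0.91, 0.16 and 1.45 in adapted cells, against -0.25, -0.27, -0.17 and -0.09 in pretreated cells. The groups were apart, but the adapted arrays were scattered, and the difference of 0.91 ± 0.24 had an adjusted p of 0.104. TRX1, the second cytosolic thioredoxin, differed by 0.11 ± 0.09, and TRX3, the mitochondrial one, by 0.32 ± 0.11. TRR1, the thioredoxin reductase, differed by 0.21 ± 0.10, and its mitochondrial counterpart TRR2 by -0.05 ± 0.08. DOT5, a nuclear thiol peroxidase, averaged 0.19 ± 0.51 in adapted and 0.20 ± 0.54 in pretreated cells (SD, n = 4 each). Of the 11 genes, 5 were called higher and 0 lower, and their median difference was 0.91, against -0.01 over all ORFs.

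Genes commonly given as Yap1 targets overlap with this system, since the peroxiredoxins make up part of that list. Of 17 such genes 6 were called higher and 0 lower, with a median of 0.72, and the median ratio of the list was 0.33 in adapted and -0.26 in pretreated cells. The members outside the thioredoxin system that passed were GPX2 and OYE3. GPX2, a glutathione peroxidase, was the only called ORF that was higher in adapted cells while its mean stayed below untreated cells in both groups. It had -1.33, -0.62, -0.30 and 0.08 in adapted cells, against -1.32, -1.45, -1.82 and -1.88 in pretreated cells. The groups overlapped at one adapted array, and the difference was 1.07 ± 0.16 (2.10-fold, adjusted p = 0.0215). The value of -1.88 is the lowest ratio of its array, so this size and its SE are less certain.

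OYE3, an NADPH oxidoreductase of the old yellow enzyme type, had 0.33, 0.54, 0.31 and 0.15 in adapted cells, against -0.24, -0.11, 0.00 and 0.02 in pretreated cells. The shift was small but similar in both dyes, 0.42 in Cy5 and 0.41 in Cy3 (adjusted p = 0.0342). GRE2, a methylglyoxal reductase, differed by 0.83 ± 0.21 with an adjusted p of 0.0954. Of the efflux pumps, ATR1 differed by -0.56 ± 0.16 (adjusted p = 0.128) and PDR5 by -0.55 ± 0.11 (adjusted p = 0.0553).

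Of 16 genes of drug efflux and of oxidoreductases 2 were called higher, OYE3 and AAD4, and 0 lower, with a median of 0.08 and 6 differences below 0. Outside that list, OSI1 and HBN1 were among the 15 largest calls, and YML131W, YNL134C and YHB1 were picked after their values were seen. OSI1, an oxidative stress-induced ORF of unproven function, had 2.55, 3.06, 2.02 and 2.61 in adapted cells, against -0.16, -0.14, 0.91 and 1.08 in pretreated cells. All adapted values were above the highest pretreated one by nearly a whole log2 unit, and the difference of 2.14 ± 0.18 (4.40-fold) had the smallest adjusted p of all ORFs, 0.00316. HBN1, which resembles bacterial nitroreductases, had 1.44, 1.89, 1.19 and 1.32 in adapted cells, against -0.04, -0.21, 0.64 and 0.79 in pretreated cells. It was likewise apart between the groups, by 1.17 ± 0.12. AAD4, a putative aryl-alcohol dehydrogenase, and YML131W, a putative dehydrogenase, were higher by 0.79 ± 0.13 and 0.73 ± 0.11. YNL134C differed by 1.16 ± 0.24 and missed the threshold at an adjusted p of 0.0643. YHB1, the flavohaemoglobin that detoxifies nitric oxide, was higher by 0.38 ± 0.07.

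The glutathione system moved less. Of 18 genes 1 was called higher, GPX2, and 0 lower, with a median difference of 0.22. The list median was 0.07 within Cy5 and 0.33 within Cy3. The glutathione transferases ECM4, GTT2 and GTT1 differed by 0.77 ± 0.17, 0.72 ± 0.15 and 0.65 ± 0.18, with adjusted p of 0.0714, 0.07 and 0.116. GSH1, which starts the synthesis of glutathione, averaged -0.39 ± 0.43 in adapted and -0.72 ± 0.19 in pretreated cells (SD, n = 4 each), below untreated cells in both. GLR1, glutathione reductase, differed by -0.04 ± 0.07.

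No superoxide dismutase or catalase passed the threshold. SOD1, the copper-zinc superoxide dismutase, came close to it. It had -0.07, 0.72, 0.17 and 0.56 in adapted cells, against -1.33, -1.18, -0.32 and -0.31 in pretreated cells, so that the groups were apart, with a difference of 1.13 ± 0.22 and an adjusted p of 0.0564. SOD2, the mitochondrial enzyme, differed by 0.51 ± 0.13. The catalases differed little: CTT1 by 0.04 ± 0.07 and CTA1 by -0.19 ± 0.07. Among 12 genes that supply NADPH, the reductant for thioredoxin and glutathione, 0 were higher and 1 was lower. This was ALD6, the cytosolic NADP-dependent aldehyde dehydrogenase, with -0.49, -0.88, -1.14 and -1.13 in adapted cells, against -0.52, -0.59, 0.01 and -0.14 in pretreated cells. The groups overlapped across dyes but not within either one, and the difference was -0.60 ± 0.09 (adjusted p = 0.0215). ZWF1, glucose 6-phosphate dehydrogenase, differed by 0.43 ± 0.17 and did not pass.

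For 16 genes of ribonucleotide reductase and the DNA damage response the median ratio was 0.72 in adapted and 0.14 in pretreated cells. RNR2, a small subunit of ribonucleotide reductase, had 2.61, 2.29, 1.66 and 1.66 in adapted cells, against 0.73, 0.06, 1.66 and 1.73 in pretreated cells. The groups overlapped only across dyes, and RNR2 was higher by 1.01 ± 0.16 (2.01-fold, adjusted p = 0.0252). The largest difference of the list belonged to HUG1, an inhibitor of ribonucleotide reductase induced by DNA damage. It had 3.97, 3.50, 3.50 and 3.06 in adapted cells, against 1.66, 0.05, 2.73 and 2.73 in pretreated cells. The groups were apart, and 1 pretreated array was near untreated cells. Both pretreated Cy5 arrays were at the ceiling of 2.73 and 1 adapted Cy5 array was at that of 3.97, so the size is uncertain. The difference of 1.71 ± 0.37 did not pass (adjusted p = 0.07) and was 1.00 within Cy5 and 2.42 within Cy3. RNR3, the damage-induced large subunit, and RNR4, the other small subunit, differed by 1.11 ± 0.23 and 0.62 ± 0.19, with adjusted p of 0.0672 and 0.139. In all, 2 of 16 genes were higher and 0 lower, with a median difference of 0.52. The list median was 0.24 within Cy5 and 0.71 within Cy3.

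The general stress genes gave 3 higher and 0 lower of 30, with a median of 0.28, and 29 of the 30 differences were above 0. The list median was 0.09 within Cy5 and 0.57 within Cy3, so most of the shift came from the Cy3 arrays. HSP12, a membrane-associated small heat shock protein, had 1.56, 2.38, 2.61 and 2.29 in adapted cells, against 0.90, 0.60, 0.69 and 0.84 in pretreated cells. It was induced on every array and by clearly more in adapted cells, with a difference of 1.45 ± 0.18 (2.74-fold, adjusted p = 0.00974). HSP42, a small heat shock protein that gathers misfolded proteins, had 0.96, 1.23, 1.30 and 1.55 in adapted cells, against 0.08, -0.16, 0.48 and 0.59 in pretreated cells, and was higher by 1.01 ± 0.17. HSP30, a regulator of the plasma membrane proton pump, was higher by 0.69 ± 0.10. TMA10, a ribosome-associated stress protein, had 2.38, 2.61, 3.06 and 2.38 in adapted cells, against 0.43, -0.31, 1.73 and 1.75 in pretreated cells. As for HUG1, the groups were apart and the pretreated arrays were split by dye, and the difference of 1.71 ± 0.36 did not pass (adjusted p = 0.0672). It was 0.75 within Cy5 and 2.66 within Cy3.

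All 32 proteasome genes had a difference above 0, with a median of 0.33 and a range of 0.08 to 0.49, but 0 were called. SCL1 and PRE1, both subunits of the core particle, differed by 0.49 ± 0.15 and 0.46 ± 0.14, with adjusted p of 0.132 and 0.139. The median of the list was 0.02 within Cy5 and 0.60 within Cy3, so the shift was present on the Cy3 arrays and nearly absent on the Cy5 arrays. With a dye term per group 26 of the 32 were called higher, against 9.22% of all ORFs. Of 24 chaperones 1 was higher, HSP42, and 0 lower, with 5 differences below 0. Their median was 0.003 within Cy5 and 0.35 within Cy3. Of 18 genes of autophagy and the vacuole 0 were called, and 7 differences were below 0. ATG8, the membrane tag of the autophagosome, had 0.46, 0.60, 1.02 and 1.19 in adapted cells, against -0.07, -0.23, 0.32 and 0.27 in pretreated cells, a difference of 0.75 ± 0.18 (adjusted p = 0.0896).

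Of the textbook lists, lysine synthesis had the largest share of calls, 5 higher and 0 lower of 8 genes, with a median difference of 0.64. LYS20, a homocitrate synthase that starts the pathway, had 1.14, 1.14, 1.58 and 1.62 in adapted cells, against 0.16, 0.10, 0.34 and 0.41 in pretreated cells. The lowest adapted array was well above the highest pretreated one, and the difference was 1.12 ± 0.13 (2.17-fold, adjusted p = 0.00726). LYS1, the enzyme of the last step, had 1.77, 1.77, 1.00 and 1.18 in adapted cells, against -0.35, -0.53, 1.15 and 1.15 in pretreated cells, with a difference of 1.07 ± 0.16 and an overlap across dyes. LYS9, which forms saccharopine, had 0.94, 0.90, 1.69 and 1.67 in adapted cells, against 0.54, 0.57, 0.32 and 0.41 in pretreated cells. It was higher by 0.84 ± 0.11, with the groups apart.

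LYS4, homoaconitase, and LYS2, the aminoadipate reductase, were higher by 0.73 ± 0.12 and 0.56 ± 0.09. LYS12 and LYS21 differed by 0.52 ± 0.11 and 0.44 ± 0.10 and did not pass (adjusted p of 0.0714 and 0.0852), and LYS5, which activates Lys2 and is not an enzyme of the pathway itself, differed by -0.11 ± 0.09. In the literature table used by the study, the 6 targets listed for Lys14, the activator of the pathway, gave 5 higher and 0 lower. They are members of the same pathway and no separate set. The transcript of LYS14 itself averaged 0.05 ± 0.12 in adapted and 0.02 ± 0.05 in pretreated cells (SD, n = 4 each). Outside the list, RTC2, a vacuolar transporter of basic amino acids, had 1.00, 1.12, 1.13 and 1.08 in adapted cells, against -0.13, -0.21, 0.62 and 0.51 in pretreated cells and was higher by 0.88 ± 0.14. RTC2 was singled out after its values were seen.

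Arginine synthesis gave 3 higher and 0 lower of 10 genes, with a median of 0.39. ARG1, argininosuccinate synthetase, had 1.17, 1.38, 1.27 and 1.05 in adapted cells, against -0.37, -0.32, 0.52 and 0.49 in pretreated cells. The adapted arrays lay close together and above all pretreated ones, and the difference was 1.14 ± 0.14 (2.20-fold, adjusted p = 0.00974). CPA1, the small subunit of carbamoyl phosphate synthetase, and ARG7, ornithine acetyltransferase, were higher by 0.76 ± 0.10 and 0.34 ± 0.06. YOR302W, the short upstream frame in the CPA1 transcript that encodes the arginine attenuator peptide, was higher by 0.76 ± 0.13, the same size as CPA1, whose transcript it shares. ARG3 and ARG4 differed by 1.06 ± 0.26 and 0.67 ± 0.16 without passing (adjusted p of 0.0925 and 0.0882). HIS4, an enzyme of histidine synthesis, went the other way. It had -0.38, -0.36, -0.33 and -0.46 in adapted cells, against 0.16, 0.07, -0.14 and -0.06 in pretreated cells, and was lower, with a difference of -0.39 ± 0.07 (adjusted p = 0.0474).

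**Figure D2:**
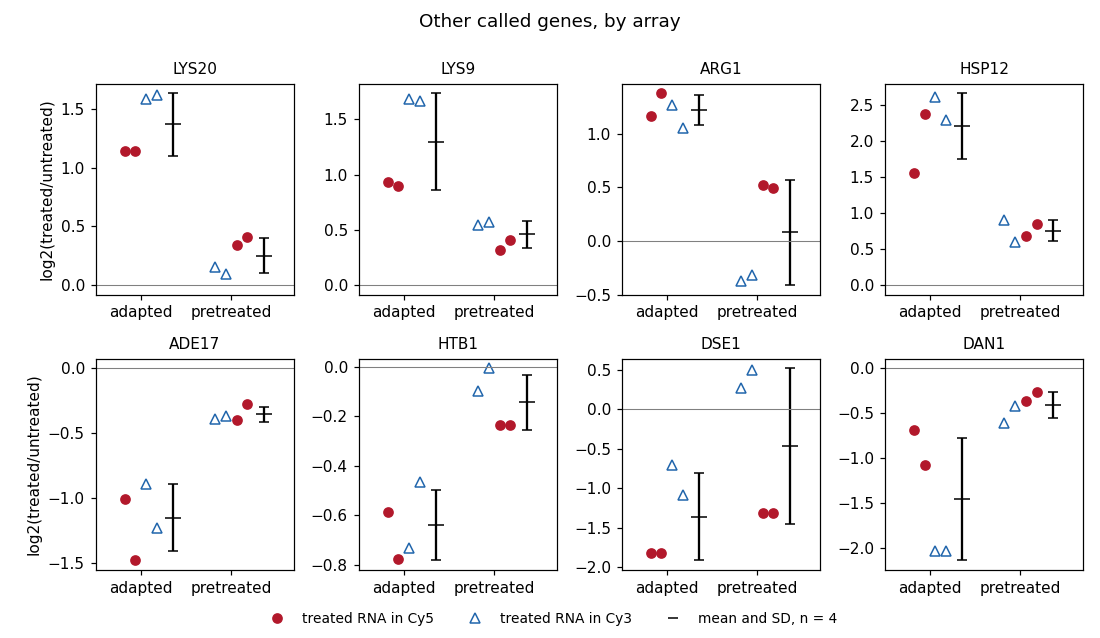
Log2 ratio of treated to untreated intensity on each array for 8 further called genes, adapted cells left and pretreated cells right; symbols mark the dye of the treated RNA, and the bar is the mean and SD (n = 4). LYS20, LYS9, ARG1 and HSP12 are higher in adapted cells and ADE17, HTB1, DSE1 and DAN1 are lower; of these 8 genes DSE1 alone overlaps between the groups.

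All 23 genes of sulfur amino acid synthesis and uptake had a difference above 0, with a median of 0.40, but 0 were called. MET2, homoserine acetyltransferase, had 0.89, 0.58, 1.56 and 1.73 in adapted cells, against -0.07, -0.10, 0.43 and 0.66 in pretreated cells. The difference of 0.96 ± 0.27 had an adjusted p of 0.115. SAM3, the S-adenosylmethionine permease, differed by 0.94 ± 0.24 (adjusted p = 0.0969). The dyes again disagreed, with a list median of -0.02 within Cy5 and 0.84 within Cy3. MET14, adenylylsulfate kinase, differed by -0.28 in Cy5 and by 1.71 in Cy3.

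Genes of purine and one-carbon synthesis were the lowest list, with a median of -0.52 and 18 of 20 differences below 0. The list median was -0.34 within Cy5 and -0.71 within Cy3. Only ADE17, which completes the purine ring, was called lower. It had -1.01, -1.48, -0.89 and -1.23 in adapted cells, against -0.39, -0.37, -0.40 and -0.27 in pretreated cells. The pretreated arrays lay within a narrow range and all above the adapted ones, and ADE17 was lower, with a difference of -0.80 ± 0.12, or 1.74-fold (adjusted p = 0.0215). The 3 members with larger differences did not pass. GCV1, a subunit of glycine decarboxylase, had -1.04, -1.04, -0.74 and -1.41 in adapted cells, against 0.83, 0.73, -0.63 and -0.49 in pretreated cells, a difference of -1.17 ± 0.26 (adjusted p = 0.0714). GCV2, another subunit of that complex, differed by -1.07 ± 0.21 (adjusted p = 0.054), and SHM2, the cytosolic serine hydroxymethyltransferase that makes one-carbon units, by -0.85 ± 0.20 (adjusted p = 0.0819).

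Genes of the cell cycle and of chromatin were also on the low side. All 10 histone genes had a difference below 0, with a median of -0.48 and 1 called lower. This was HTB1, a histone H2B gene, with -0.59, -0.78, -0.73 and -0.47 in adapted cells, against -0.10, -0.01, -0.23 and -0.23 in pretreated cells. The groups were apart, and the difference of -0.50 ± 0.08 (adjusted p = 0.0268) was of like size in both dyes, -0.45 in Cy5 and -0.55 in Cy3. HTA2, HTA1 and HHT2, genes of histones H2A and H3, differed by -0.84 ± 0.23, -0.67 ± 0.17 and -0.57 ± 0.13 and did not pass. The median of the histone list was -0.25 within Cy5 and -0.64 within Cy3. Histone genes come in near-identical pairs, so the values of a pair cannot be fully told apart.

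All 12 mitotic genes had a difference below 0, with a median of -0.22 and 1 call. CDC5, the polo kinase of mitotic exit, had -0.40, -0.51, -0.17 and -0.01 in adapted cells, against 0.44, 0.33, -0.16 and -0.10 in pretreated cells, with an overlap across dyes but not within them. It was lower, with a difference of -0.40 ± 0.07 (adjusted p = 0.0364). CLB1, a mitotic cyclin, differed by -0.45 ± 0.09 (adjusted p = 0.0548). Of 7 cyclins of G1 and S phase 0 were called, and their median was -0.01. All 14 genes that act after division, when the daughter separates from its mother, also lay below 0, with a median of -0.38. The median of these genes was -0.18 within Cy5 and -0.60 within Cy3. DSE1, a daughter-cell gene of the cell wall, had -1.82, -1.82, -0.71 and -1.09 in adapted cells, against 0.27, 0.50, -1.32 and -1.32 in pretreated cells. Within each dye the adapted arrays were lower, while across dyes the groups overlapped, and the difference was -0.89 ± 0.16 (1.86-fold lower, adjusted p = 0.0357). CTS1, the chitinase that cuts the septum, and SCW11, a glucanase, differed by -0.54 ± 0.14 and -0.51 ± 0.13 and did not pass.

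The lowest called ORF was DAN1, a cell wall mannoprotein of anaerobic cells. It had -0.69, -1.08, -2.03 and -2.03 in adapted cells, against -0.61, -0.42, -0.37 and -0.26 in pretreated cells. Both adapted Cy3 arrays were at the floor, the groups were apart by a narrow margin, and the difference was -1.04 ± 0.18 (2.06-fold lower, adjusted p = 0.0342), where the tied values at the floor make the size and its SE uncertain. It was -0.57 within Cy5 and -1.52 within Cy3. TIR4, of the same protein class, averaged -1.17 ± 0.55 in adapted and -0.17 ± 0.28 in pretreated cells (SD, n = 4 each), with an adjusted p of 0.0896. Of the 12 mannoprotein genes of this kind 10 lay below 0, and the median was -0.16. It was -0.04 within Cy5 and -0.26 within Cy3. CWP1, a cell wall mannoprotein of aerobic cells, and WSC4, a membrane protein of the secretory pathway, were lower, with differences of -0.64 ± 0.12 and -0.56 ± 0.07.

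Metal transport genes gave single calls. ZRT1, the high-affinity zinc importer, had -0.21, -0.39, -0.65 and -0.73 in adapted cells, against -0.25, -0.12, 0.22 and 0.02 in pretreated cells. The groups overlapped slightly across dyes, and ZRT1 was lower, with a difference of -0.46 ± 0.08 (adjusted p = 0.0273). IZH4, a membrane protein linked to zinc homeostasis, was higher by 0.63 ± 0.12. Of 24 iron genes 0 were called, but 21 lay below 0 and the median was -0.30. The list median was -0.05 within Cy5 and -0.51 within Cy3, so the shift was nearly absent on the Cy5 arrays. FIT1, a mannoprotein that retains siderophore iron, had -0.87, -0.96, -1.64 and -1.54 in adapted cells, against 0.25, 0.02, -0.57 and -0.32 in pretreated cells, a difference of -1.10 ± 0.22 (adjusted p = 0.0574). FET3 and FTR1, the oxidase and permease of high-affinity iron uptake, differed by -0.74 ± 0.22 and -0.60 ± 0.15 and did not pass. FET4, the low-affinity importer, is no member of the list. It differed by -1.13 ± 0.28 (adjusted p = 0.094), with -0.33 within Cy5 and -1.92 within Cy3. Of 13 phosphate genes 0 were called. PHO89, a phosphate cotransporter, differed by -0.94 ± 0.22 (adjusted p = 0.0882).

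**Figure D3:**
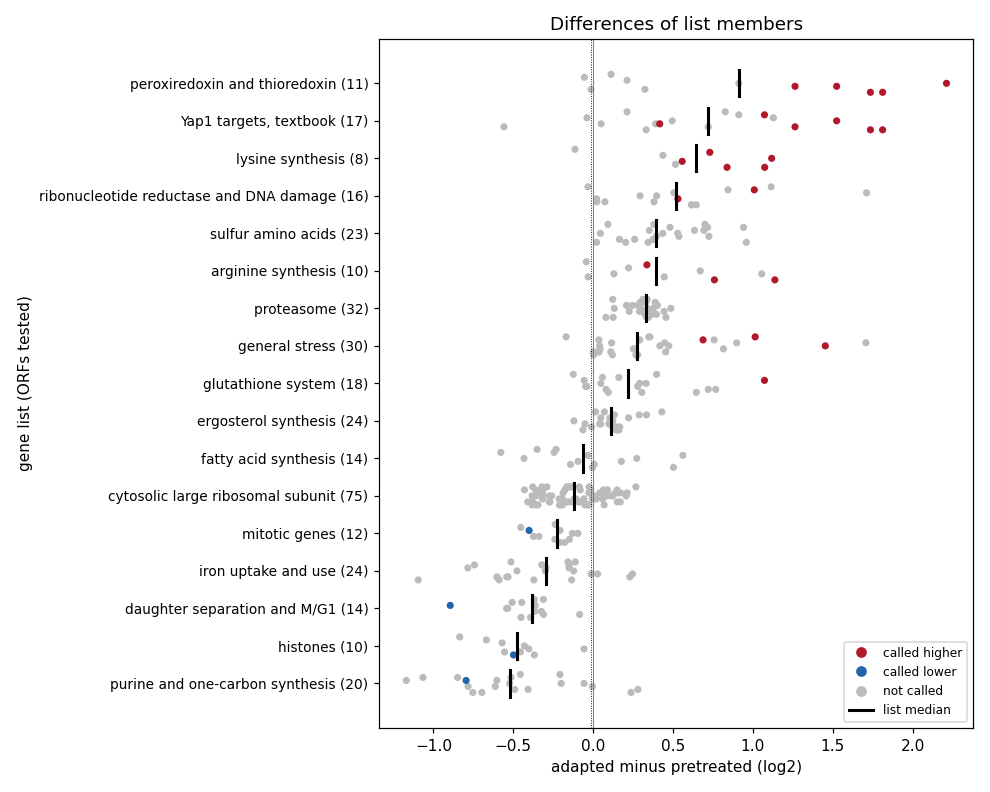
Difference in log2 ratio, adapted minus pretreated, of each member of 17 gene lists (rows, number of ORFs tested in brackets), with called ORFs in colour and the list median as a black bar; the dotted line is the median of all ORFs, -0.01. The medians run from 0.91 for peroxiredoxins and thioredoxins to -0.52 for purine and one-carbon synthesis, and most coloured points lie in the upper rows.

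The regulators of these pathways were not called at the level of their transcripts: 0 of 21 passed, and their median was 0.03. YAP1 averaged 0.20 ± 0.22 in adapted and -0.16 ± 0.21 in pretreated cells (SD, n = 4 each), with a difference of 0.36 ± 0.13 and an adjusted p of 0.17. SKN7, MSN2, RPN4 and MET4 differed by 0.07 ± 0.10, -0.04 ± 0.07, 0.12 ± 0.08 and -0.01 ± 0.07, and MSN4, HSF1 and AFT1 by 0.22 ± 0.09, 0.26 ± 0.11 and -0.30 ± 0.09. The remaining regulators differed by -0.26 to 0.19. PHD1, an activator of filamentous growth, and PDR3, an activator of drug pumps, are no members of the list and were lower, with differences of -0.39 ± 0.07 and -0.33 ± 0.06.

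Lipid genes, among them those of the factors Mga2 and Rox1 that the wider study followed, gave few calls. Fatty acid synthesis gave 0 calls of 14 genes with a median of -0.06, ergosterol synthesis 0 of 24 with a median of 0.11, and hypoxic genes repressed by Rox1 0 of 12 with a median of 0.06. OLE1, the fatty acid desaturase, was above untreated cells in both groups. It had 0.77, 0.87, 2.38 and 1.89 in adapted cells, against 1.13, 1.15, 0.73 and 0.65 in pretreated cells. The groups overlapped across dyes but not within either one. The difference of 0.56 ± 0.17 did not pass (adjusted p = 0.137) and was 0.13 within Cy5 and 0.99 within Cy3. FAS1, a subunit of fatty acid synthase, averaged 0.40 ± 0.55 in adapted and 0.54 ± 0.59 in pretreated cells (SD, n = 4 each). Its difference of -0.14 ± 0.06 did not pass (adjusted p = 0.226) and was -0.11 within Cy5 and -0.18 within Cy3. MGA2 and ROX1 differed by 0.19 ± 0.10 and 0.12 ± 0.08. Of the 27 targets that the study's literature table gives for Mga2, 1 was higher, IZH4, and 0 were lower, with a median of -0.06.

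No gene list of protein synthesis held a call. Ribosomal protein genes of the large and small cytosolic subunit had medians of -0.12 (75 genes) and -0.04 (56 genes), those of the mitochondrial ribosome -0.02 (43 genes), and 50 ribosome biogenesis genes 0.01, with 0 calls in each. Of the 75 large subunit genes 54 lay below 0, against 3312 of all 6207 ORFs. With a dye term per group 22 were called lower and 0 higher, against 8.75% and 9.22% of all ORFs. Glycolysis had a median of -0.13, the TCA cycle 0.16 and the respiratory chain 0.07, again with 0 calls. Around these pathways, CTP1, the mitochondrial citrate carrier, was higher. It had 1.37, 1.29, 0.91 and 0.96 in adapted cells, against 0.21, 0.14, 0.79 and 0.63 in pretreated cells, with the groups apart by 0.69 ± 0.07 (adjusted p = 0.00459). CIT2, the peroxisomal citrate synthase, had 0.44, 0.45, 1.89 and 1.47 in adapted cells, against -0.02, -0.08, -0.01 and -0.06 in pretreated cells, and its difference of 1.11 ± 0.22 missed the threshold at 0.0574. MPC3, a mitochondrial pyruvate carrier subunit, and PDH1, an enzyme of the methylcitrate cycle, were higher by 0.43 ± 0.08 and 0.50 ± 0.09. CTP1, CIT2, MPC3 and PDH1 were singled out after their values were seen.

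Where the called ORFs stood relative to untreated cells differed between the directions. Of the 47 higher ORFs, 38 were above untreated cells on average in both groups, 8 were below in pretreated and above in adapted cells, and 1, GPX2, was below in both. Of the 12 lower ORFs, 10 were below untreated cells in both groups, and 2 were above in pretreated and below in adapted cells. Over all ORFs with a difference above 0, 41.3% were above untreated cells in both groups, and over those with a difference below 0, 47.7% were below in both. Since the pretreated values enter both the ratio and the difference, this is a count and not a test.

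**Figure D4:**
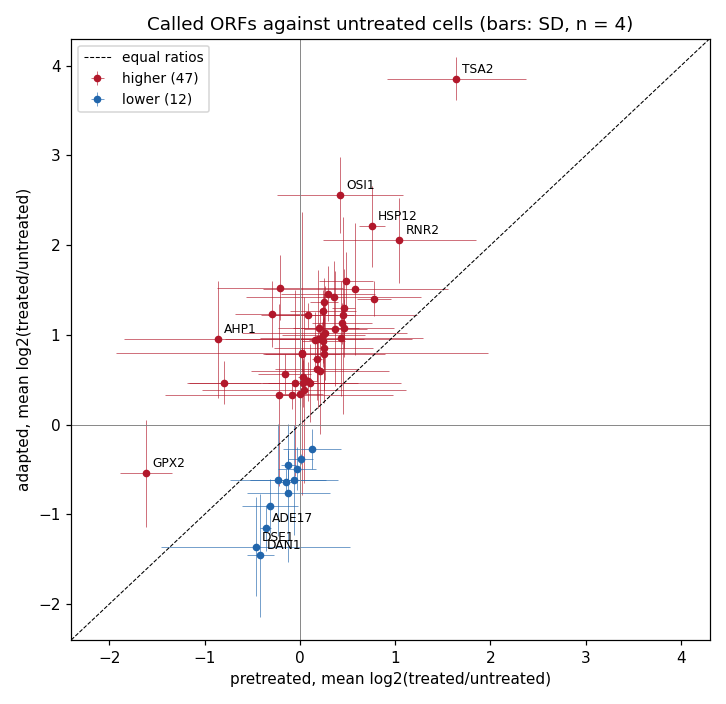
Mean log2 ratio to untreated cells in adapted (vertical axis) against pretreated cells (horizontal axis) for the 59 called ORFs, with SD bars over 4 arrays. Of the higher ORFs 38 lie above 0 on both axes, and of the lower ones 10 lie below 0 on both; GPX2 is the single higher ORF below 0 on both.

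Both dye orientations gave the same sign for all 59 called ORFs, against 3542 of the 6207 ORFs tested. The fit with a shared dye term favours ORFs that agree between the orientations, so this is a count and not a test. The sizes of the differences were unequal between the orientations, though. Among the 47 higher ORFs the median difference was 0.97 within Cy3 and 0.56 within Cy5, and 44 were larger within Cy3. Among the 12 lower ORFs, 10 were larger in size within Cy3. For 19 of the higher and 5 of the lower ORFs the dye term exceeded the difference between the groups in size. It reached 3.05 for YBL053W, an ORF of dubious coding status, which had 2.29, 2.02, -0.55 and -0.59 in adapted cells, against -1.45, -1.88, 1.75 and 1.66 in pretreated cells. Its difference of 0.77 ± 0.15 thus rests on comparing like dyes, since across dyes the groups overlap. The value of -1.88 is the lowest ratio of its array.

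**Figure D5:**
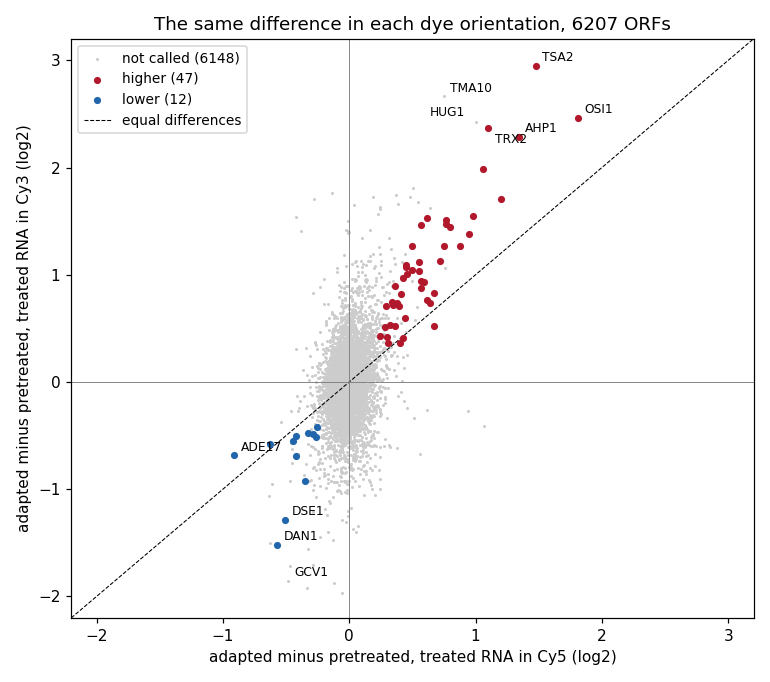
Difference in log2 ratio, adapted minus pretreated, on the arrays with the treated RNA in Cy3 (vertical axis) against those with it in Cy5 (horizontal axis) for 6207 ORFs, with the 47 higher and 12 lower ORFs in colour. The cloud of ORFs is taller than it is wide (SD 0.362 in Cy3 and 0.129 in Cy5), and 44 of the 47 higher ORFs and 10 of the 12 lower ones are larger in size within Cy3.

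Several called ORFs have no established role or lie beside another called ORF. YMR090W, an uncharacterised ORF, had 1.15, 1.81, 1.57 and 1.87 in adapted cells, against 0.42, 0.14, 0.54 and 0.82 in pretreated cells, and was higher by 1.12 ± 0.18 with the groups apart. PRM7, BSC1 and YDL038C, which carry consecutive systematic names and of which YDL038C is listed as a synonym of PRM7, were higher by 0.55 ± 0.10, 0.34 ± 0.06 and 0.52 ± 0.10. They may not be separate measurements, and all of them had a dye term above 1. RGM1, a putative transcription factor, and its neighbour YMR181C were higher by 0.60 ± 0.07 and 0.62 ± 0.10. SHC1, a gene of the spore wall, was higher by 0.44 ± 0.07. NCA3, a cell wall protein of the SUN family, had 2.14, 2.14, 0.91 and 0.83 in adapted cells, against -0.22, -0.30, 1.46 and 1.39 in pretreated cells. It overlapped across dyes and was higher by 0.93 ± 0.09. Since its 2 adapted Cy5 values are equal, this SE may be too small. Further ORFs called higher were SOM1, RRT1, YBR085C-A, LEE1, YBR012C and NDT80, with differences between 0.36 and 0.77. Those of this paragraph other than YMR090W were named after their values were seen.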

How the data were processed

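Two-colour Agilent arrays were used, with the dyes swapped on 2 of the 4 arrays of each group, which the submitters describe as biological replicates. The authors deposited 1 background-corrected, quantile-normalized intensity per ORF and channel; merging of spots and the filter behind missing values are not given in the sources used here. A second deposited table gives natural log ratios, treated to untreated, of 10807 spots. It names no genes and is not centred (the scale was inferred from its values), and only counts of calls were taken from it. Of 6251 ORFs, 5751 matched a locus tag in the table of gene names and 4 a synonym. The log2 ratio was taken per ORF and array and fitted in R 4.3.3 with limma 3.58.1 (lmFit, eBayes), with a mean per group and 1 gene-specific dye term shared by both groups (5 residual degrees of freedom, median SE 0.08). Tests were two-sided with Benjamini-Hochberg adjustment over all 6207 ORFs. Precision is limited by how many arrays there are. The script was tested on simulated data. Errors in the text are SE of the fit unless named SD. Gene lists are textbook lists, described by counts and medians without a test. From the literature table of the study, 9 target lists were shortened in the copy used and left out, and those of Mga2, Lys14 and Hir1 were kept (of the 3 targets of Hir1, HTB1 was lower; the median was -0.50). Named genes were the up to 15 largest calls in each direction, up to 4 called members of each list (otherwise its 2 largest), all regulators, thioredoxin system and strain marker genes, and ACT1. A further 37 genes were named after their values were seen, and 23 called ORFs fell outside the rule. Members, lists and rules were chosen with earlier results of these data known. Alternatives were another dye model, other arrays, centring, loess, a filter on dim ORFs, the table of spots, another prior, a replicate block and leaving out each array. Some called ORFs are counted but not reported here by name.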

Additional observations from a re-analysis of the deposited data

Results flagged for a closer look

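Among the named genes, 340 groups of 4 arrays were examined for 1 array far from the other 3, and 11 were picked out, or 3.24%, where chance gives about 1 in 20 for arrays that are alike; here each group holds 2 arrays of each dye orientation, so that rate is only a guide. In adapted cells, TSA2 was at 3.50 on 1 array and at the ceiling of 3.97 on the other 3, so its gap reflects equal values set by the normalization. AHP1 was at 1.93 with the next array at 0.694, and YML131W at 0.899 with the next at 0.481. Low single arrays were seen for HSP26 (0.891, the others from 1.46 to 1.55), GRE2 (-0.275, the others from 0.233 to 0.28), APE1 (0.295, the others from 0.671 to 0.709) and GCV2 (-1.71, the others from -0.937 to -0.847), and a high one for UPC2 (0.339, the next at 0.062). In pretreated cells, single arrays stood apart for ARG3 (-0.379, the others from 0.0818 to 0.137), FET3 (0.49, the others from -0.359 to -0.24) and MF(ALPHA)2 (0.202, the others from -0.0827 to -0.0405). The cause was not tested.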

How the results depend on the processing

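The main fit gave 47 higher and 12 lower ORFs, 59 in all. A dye term per group gave 572, 543 and 1115, and the replicate block, kept with the dye term, 542, 512 and 1054. Whether the replicate numbers pair the samples cannot be told from these values. Same-numbered arrays had opposite dyes in the 2 groups, so their opposite deviations from the group means (correlations of -0.851 to -0.791) do not bear on pairing. After removal of the dye means, the 2 arrays of a dye in a group deviate as mirror images. Only 2 distinct correlations are then left, -0.00 and 0.17. In these groups the block also absorbs the part of the dye effect that differs between them. Without a dye term 0, 0 and 0 ORFs were called by limma (234 at an unadjusted p under 0.05), over 12 wild type arrays 9, 0 and 9, over 24 arrays (4373 ORFs) 19, 3 and 22, without the dimmest 25% of ORFs (4655 left) 32 higher, 9 lower and 41, in the table of spots 0, 0 and 0 (1098 unadjusted), and with a variance trend and robust prior 2, 0 and 2. The cause of the last was not tested. Centring gave 53 higher and 9 lower and loess 53 and 10. Leaving out 1 array gave 3 to 133 higher, 0 to 62 lower and 3 to 195 in all. By array these were 195 without adapted replicate 1, 29, 18 and 8 without adapted replicates 2, 3 and 4, and 3, 9, 28 and 35 without pretreated replicates 1 to 4. No named ORF past the threshold changed direction in any alternative that gave it a value (the table of spots names no genes). Of the 59, 58, 27, 17 and 7 stayed called without adapted replicates 1 to 4 and 3, 9, 27 and 35 without pretreated replicates 1 to 4. The 3 that stayed throughout were OSI1, NCA3 and CTP1. Ratios at the ceiling or floor of a group are tied by the normalization. Inside these limits a gene can also share 1 ratio between arrays of a group, as NCA3 did.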
